A study of Mus musculus with 8 samples.

Results

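Stimulated macrophages with and without Nudt21 are described here, through 4 of the 8 RNA-seq samples of the study. The samples were chosen by their labels alone, namely 2 Nudt21-cKO and 2 WT samples that had received IFNγ and then LPS for 4 h, and the other 4 samples (0 h) were used only where the 2 times are compared. All samples were bone marrow-derived macrophages (BMDMs), which are grown in culture from mouse bone marrow with M-CSF. The cKO mice were C57BL/6 animals with both Nudt21 alleles floxed (Nudt21 fl/fl) and Cre expressed from the LysM (lysozyme M) locus, which is active in myeloid cells and not in macrophages alone. The WT mice carried LysM-Cre too and were littermates of the same sex, so that Cre itself was shared by both groups. Each sample pooled the BMDMs of 2 mice, so the spread within a group is that of 2 pools. The labels list the stimulation for the 0 h samples as well, and those samples were taken as unstimulated from their titles.

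Nudt21, also called CFIm25 or CPSF5, is the RNA-binding subunit of cleavage factor Im. It recognises UGUA in the nascent RNA and, with Cpsf6 or Cpsf7, favours distal polyadenylation sites, so that its loss usually shortens 3'UTRs. IFNγ primes macrophages and LPS, through TLR4, then starts the transcription of cytokines, chemokines and interferon-stimulated genes, while nitric oxide, itaconate, iron handling and sterol synthesis are reset in the same hours.

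The deposited value of a gene has no named unit and was taken from its range as mean read coverage per base. These values were scaled so that the 4 samples had the same sum. Before scaling the summed coverage was 17400000 and 18000000 in cKO against 15600000 and 15000000 in WT. The number of mapped reads behind a value is not given by the coverage, and a value that is averaged over a gene also moves with the length of the transcript that is made, which was not separated here. The logarithms of the scaled values correlated across genes (which are not independent replicates) with r = 0.963 between the cKO samples, 0.948 between the WT samples and 0.933 to 0.94 between genotypes. Nudt21 itself, on chromosome 8 from 94019403 to 94037039 (RefSeq, GRCm38.p6), had a coverage of 135 and 106 in cKO and of 578 and 633 in WT. This gave a log2 fold change of -2.34 (standard error 0.16, limma adjusted p = 0.0015), in the direction of the labels, and some Nudt21 coverage remained in both cKO samples. Coverage over the whole gene does not tell floxed from deleted transcripts.

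The macrophage identity of the samples was checked with markers. The 10 macrophage markers had summed coverages of 71580 and 73390 in cKO and 75740 and 77330 in WT. Cd68 (log2 fold change 0.86) was higher and Adgre1 (-0.68) and Spi1 (-0.65) were lower in cKO, and the other 7 were not called. Lyz2, the lysozyme M gene whose locus drives Cre, was at 761 and 963 in cKO and at 481 and 657 in WT and was not called (adjusted p = 0.0745 from limma). Neutrophil markers were also found, with sums of 21530 and 23640 in cKO and 19050 and 24490 in WT that overlapped between genotypes, and 0 of the 8 were called. The part of such cells in the results below was not tested. Summed markers of T, B, NK, mast and erythroid cells stayed at or below 97 in every sample and those of stromal cells at or below 107, with 0 called. In a bulk sample, fewer cells of a type and less RNA per cell cannot be told apart.

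Genotypes were compared with limma on log2(scaled coverage + 0.1) for the 14947 genes whose mean coverage reached 0.5. Calls throughout required a change of over 1.5-fold together with a Benjamini-Hochberg adjusted p below 0.05. By this rule 1246 genes rose in cKO (8.34% of those tested) and 612 fell (4.09%). These 2 percentages are the background against which the gene lists below are read. In all 1858 called genes the cKO and WT samples did not overlap, which also held for 60.5% of all genes tested. Fold changes above 4 were found for 204 of the higher and 77 of the lower genes. The share of higher genes was 67.1% of the calls, and it depended on the scaling. Centring the samples on their medians called 6.73% of genes higher and 6.74% lower (50% of calls higher), and quantile normalization gave 52.9% and unscaled values 86.6%. Over all genes tested the log2 fold change had a median of 0.0956, which was 0.127 lower with median-centring. Of the calls, 932 higher and 601 lower genes were also called with median-centring. With 1 sample left out 0 genes were called, at a lowest limma adjusted p of 0.0575 to 0.311, while 1053 to 2844 genes were higher and 561 to 1357 lower at an unadjusted p under 0.05. All 1858 genes kept their direction in each of these 4 fits, which the lack of overlap between groups fixed in advance. Without limma's intensity trend, which lets the spread depend on the level, 153 genes were called higher and 43 lower.

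**Figure D1:**
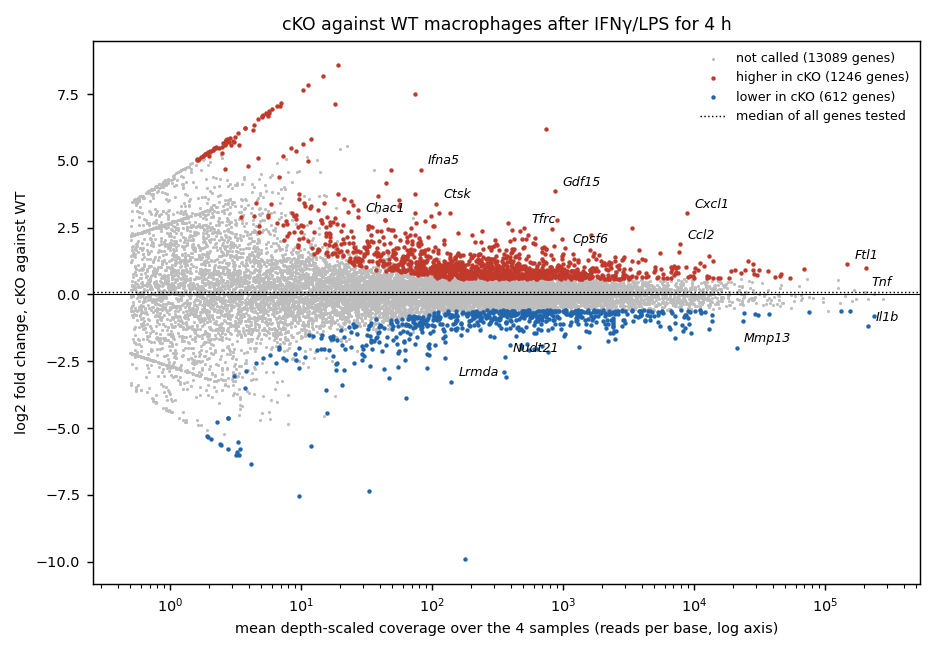
Log2 ratio of cKO to WT at 4 h (vertical) against the mean depth-scaled coverage of the 4 samples (horizontal, log axis), with 1 point per gene tested. Red points are the 1246 genes called higher and blue points the 612 called lower, and the dotted line is the median of all genes at 0.0956.

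Called genes were spread over 38 lists of genes by function and over the Zfp and histone families. By the percentage of members called higher minus that called lower, with samples scaled to the same sum, the 4 lists with the largest excess of higher genes were core autophagy (13 higher and 0 lower of 40), antioxidant and iron genes (12 and 0 of 40), AP-1 and immediate early factors (9 and 2 of 29) and the unfolded protein and integrated stress response (13 and 4 of 42). The 3 with the largest excess of lower genes were chemokine and chemoattractant receptors (2 higher and 8 lower of 30), phagocytic, scavenger and Fc receptors (5 and 13 of 44) and cholesterol and fatty acid metabolism (3 and 12 of 61). The order depends on the scaling, since the 15 microRNA pathway genes gave 3 higher and 1 lower here but 5 and 1 with median-centring or quantile normalization, which with median-centring is second to core autophagy. These lists are described in turn by their counts, and no test of a list was made.

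**Figure D2:**
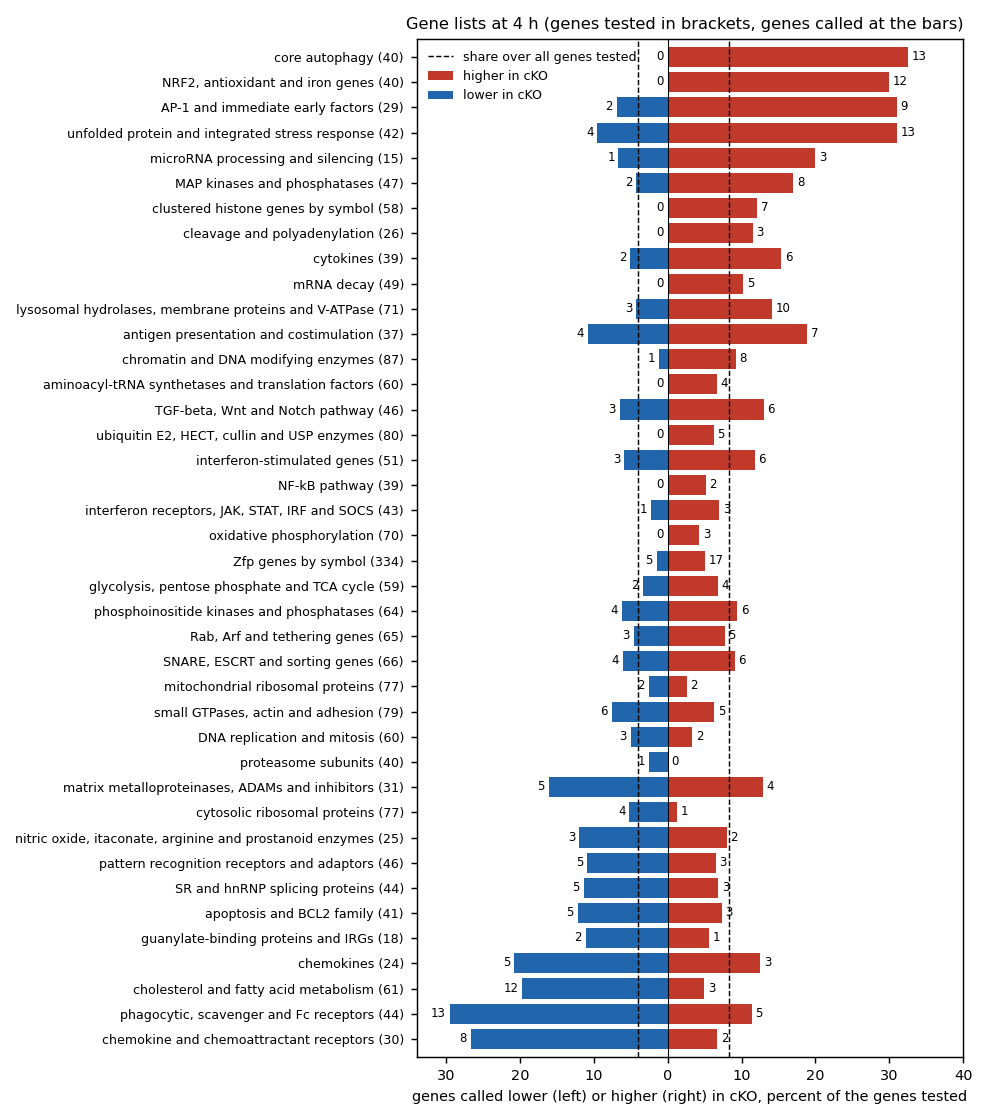
Percentage of the tested members of each gene list that were called higher (red, right) or lower (blue, left) in cKO at 4 h. Numbers at the bars are genes called, numbers in brackets are genes tested, and the dashed lines are the 8.34% and 4.09% of all genes.

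Among genes above 0 in every sample, and leaving out predicted symbols, Tlcd2 rose most. Tlcd2, a membrane protein gene on chromosome 11 from 75468024 to 75470899, was at 1396 and 1528 in cKO and at 18.5 and 21.7 in WT (log2 fold change 6.18, standard error 0.16, limma adjusted p = 0.000126). Frmd7, Ifna5, Ifna4, Atp8a2 (a phospholipid flippase), Gdf15, Rragd (a Rag GTPase that activates mTORC1 on lysosomes) and Zfp503 were among the next, with log2 fold changes of 4.98, 4.68, 4.65, 4.17, 3.87, 3.75 and 3.69. Several of the largest rises were in genes listed at 0 in WT, 55 of the 1246 in all, and such genes have no fold change. Ccdc141, for example, was at 42.3 and 34.1 in cKO and listed at 0 in both WT samples.

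Among the falls, Lrmda, a gene linked to melanocyte differentiation, was at 26.8 and 25.9 in cKO and at 250 and 258 in WT (log2 fold change -3.26, standard error 0.18, limma adjusted p = 0.00109). Slc15a2, a carrier of di- and tripeptides (-3.12), Rarres1 (-2.66), Hpgd, which inactivates prostaglandins (-2.56), and Fpr3, a formyl peptide receptor (-2.47), fell too. Slc15a2 was at 15.8 and 5.56 in cKO and at 70.2 and 97.2 in WT, with a log2 fold change of -3.87 without cKO sample 3 and -2.37 without cKO sample 4. Hpgd, at 11 and 4.72 against 40.6 and 45.8, moved likewise, to -3.16 and -1.96. Xcr1, a chemokine receptor of cross-presenting dendritic cells, was low everywhere, with 4.39 and 2.12 in cKO and 18.5 and 57.6 in WT. The other dendritic cell markers, Flt3, Zbtb46 and Siglech, were not called, and the part of such cells in the Xcr1 value was not tested. The deepest fall of all, seen only after the values were inspected, was that of Gm27177, annotated as a long noncoding RNA on chromosome 14 from 69581540 to 69640470. It was at 0.826 and 0.0531 in cKO and at 348 and 369 in WT, and it was lower at 0 h too (log2 fold change -3.58).

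The cytokine genes moved in different directions. Of 39 tested, 6 were higher (15.4%) and 2 lower (5.13%) in cKO, with 6 and 5 after median-centring and 6 and 6 after quantile normalization, and their median log2 fold change was -0.103 against 0.0956 for all genes. Tnf was at 198780 and 216960 in cKO and at 219380 and 170870 in WT, and Il6 at 11460 and 11008 in cKO and at 12120 and 9466 in WT. The genotypes overlapped for both genes, whose log2 fold changes were 0.10 (limma adjusted p = 0.62) and 0.07 (adjusted p = 0.739), and with median-centring both signs turned negative.

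Il1b, the precursor of interleukin-1β, fell. It was at 133400 and 124340 in cKO and at 348370 and 250380 in WT (log2 fold change -1.20, standard error 0.15, limma adjusted p = 0.00609), and with median-centring the adjusted p was 0.0711 at a log2 fold change of -1.32. Il1a, Il12b and Il27 did not overlap between genotypes and lay lower in cKO, with log2 fold changes of -0.60, -0.31 and -0.43, but missed the threshold (adjusted p = 0.0555, 0.0555 and 0.0542 from limma). Pdgfb, a growth factor for mesenchymal cells, was called lower (-1.07).

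Genes of type I interferons and of single other factors rose. Ifnb1, the first interferon made after LPS, was at 3651 and 4445 in cKO and at 1726 and 1544 in WT (log2 fold change 1.30, standard error 0.12, limma adjusted p = 0.00236). Ifna5 was at 157 and 159 in cKO and at 4.41 and 8.38 in WT, and Ifna4 at 75.8 and 110 against 1.68 and 7.32. These 2 genes belong to a family of near-identical copies on chromosome 4, so reads may have been assigned to either. The log2 fold change of Ifna4 was 3.63 without WT sample 1 and 5.68 without WT sample 2. Csf2, which encodes GM-CSF, was at 158 and 193 in cKO and at 23.9 and 21.6 in WT (2.94). Gdf15, a stress-induced member of the TGF-β family, was at 1335 and 1950 in cKO and at 124 and 98.1 in WT (3.87, standard error 0.21, limma adjusted p = 0.00109). Tnfsf15, or TL1A, rose by 0.90 on the log2 scale.

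The chemokines separated by gene. Of 24 tested, 3 were higher (12.5%) and 5 lower (20.8%), and with unscaled values the count was 6 higher and 2 lower. The neutrophil attractants Cxcl1 and Cxcl3 rose, Cxcl1 from 2472 and 1478 in WT to 14729 and 17022 in cKO (log2 fold change 3.05, standard error 0.23, limma adjusted p = 0.00159). Cxcl3 rose from 1214 and 848 to 5122 and 6262 (2.48). The monocyte attractant Ccl2 rose from 3166 and 3583 to 12111 and 12622 (1.88).

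Ccl8 and Ccl12, which lie beside Ccl2 on chromosome 11 and act on overlapping receptors, went the other way. Ccl8 was at 209 and 213 in cKO and at 864 and 917 in WT (log2 fold change -2.07), and Ccl12 at 1114 and 914 against 3396 and 3410 (-1.75). Ccl3 (-0.81) and Ccl4 (-0.61), which attract monocytes and lymphocytes, were called lower with adjusted p-values of 0.0322 and 0.0301 from limma, but with median-centring these were 0.19 and 0.212. Their annotated spans overlap, so that some reads may belong to either. The most abundant interferon-induced chemokines did not pass: Cxcl10 had a log2 fold change of -0.23, Cxcl9 of -0.07 and Ccl5 of -0.17, and Cxcl2, of the same family as Cxcl1, one of 0.57 (adjusted p = 0.109 from limma).

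Receptors for chemokines and other attractants fell more often than they rose. Of 30 tested, 8 were lower (26.7%) and 2 higher (6.67%), with a median log2 fold change of -0.435. Median-centring gave 8 lower and 0 higher, and unscaled values 4 and 3. Ccr1, which binds Ccl3 and Ccl5, was at 276 and 225 in cKO and at 939 and 1107 in WT (log2 fold change -2.03, standard error 0.15, limma adjusted p = 0.00159), and Ccr2, the Ccl2 receptor, at 41 and 23.9 against 110 and 92 (-1.68). Gpr84, a medium-chain fatty acid receptor (-0.97), the UDP receptor P2ry6 (-0.70) and the complement C3a receptor C3ar1 (-0.61) were lower too, while Ptafr, the receptor for platelet-activating factor, was higher (0.66), a call that was lost with median-centring.

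**Figure D3:**
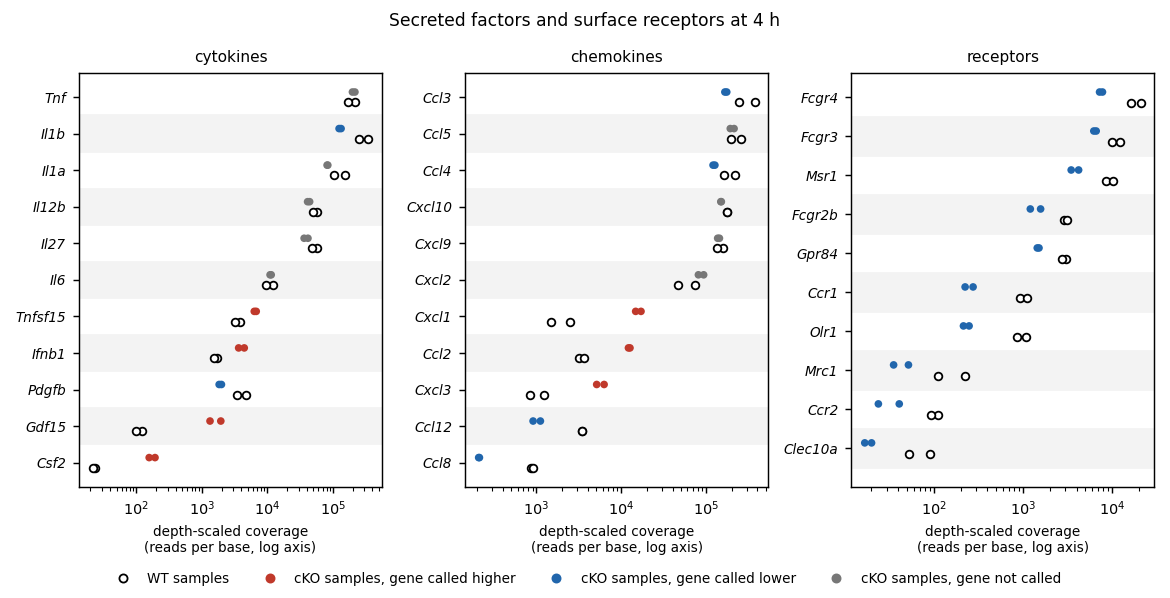
Depth-scaled coverage of cytokines, chemokines and receptors in each sample at 4 h (log axis), with open circles for the 2 WT samples and filled circles for the 2 cKO samples. Cxcl1, Cxcl3, Ccl2, Gdf15 and Csf2 lie to the right of WT in cKO, all 10 receptors shown lie to the left, and Tnf and Il6 overlap. The receptors shown were chosen among those called lower, and higher ones such as Ptafr are left out.

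Of the 44 phagocytic, scavenger, Fc and complement genes tested, 13 were lower (29.5%), 5 higher (11.4%) and 26 not called, and the median log2 fold change was -0.305. With unscaled values the count was 10 lower and 9 higher. Olr1, or LOX-1, a receptor for modified lipoproteins, was at 249 and 215 in cKO against 851 and 1091 in WT (-2.06, standard error 0.16, limma adjusted p = 0.00159). Msr1, or scavenger receptor A, was at 4221 and 3484 against 8480 and 10298 (-1.28), and Marco fell by 1.45 on the log2 scale.

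The lectins Mrc1, the mannose receptor (-1.89), and Clec10a (-1.90), both used as markers of alternatively activated macrophages, and Timd4, which binds phosphatidylserine on dying cells (-1.50), were lower. Among the Fc receptors for IgG, Fcgr4 was at 7820 and 7253 in cKO and at 16206 and 20948 in WT (-1.29), the inhibitory Fcgr2b at 1581 and 1212 against 2894 and 3096 (-1.11), and Fcgr3 had a log2 fold change of -0.78.

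Complement genes diverged. C1qb of the classical pathway fell by 0.77 on the log2 scale. C3 rose from 7261 and 6361 in WT to 15174 and 15742 in cKO (1.19, standard error 0.09, limma adjusted p = 0.00159), and Cfb, factor B, which forms the C3 convertase of the alternative pathway, from 8243 and 7131 to 16199 and 16284 (1.08). The lysosomal membrane proteins Cd68 (0.86) and Scarb2 (1.24) were the other higher members described here.

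Components of the sensing pathways upstream of these genes were counted next. Of 39 NF-κB pathway genes 2 were higher (5.13%) and 0 lower, and with median-centring 1 was higher and 4 were lower. Ikbkg, or NEMO, the scaffold of the IKK complex, was at 582 and 587 in cKO and at 231 and 256 in WT (1.27), Nfkbid was higher (0.89, not called with median-centring), and Nfkbia, the main NF-κB inhibitor and itself a target, did not pass (0.24, limma adjusted p = 0.134). Of 46 pattern recognition genes 5 were lower (10.9%) and 3 higher (6.52%), a balance that turned with unscaled values (6 higher and 2 lower). Tlr4, the LPS receptor, was at 94.8 and 95.8 in cKO and at 144 and 170 in WT (-0.71, limma adjusted p = 0.0352), and the RNA sensor Tlr8 had a log2 fold change of -1.33. Clec4e, or Mincle, was higher (0.86), with an adjusted p of 0.178 after median-centring.

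MAP kinase genes gave 8 higher (17%) and 2 lower (4.26%) of 47, but 2 higher and 4 lower with median-centring. The stress kinase Map3k5 was lower (418 and 374 in cKO against 741 and 710 in WT, -0.87). The phosphatases that inactivate MAP kinases, Dusp8 (1.47) and Dusp3 (1.33), were higher under both scalings.

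Among AP-1 and immediate early factors 9 of 29 were higher (31%) and 2 lower (6.9%), or 7 and 3 with median-centring, with a median log2 fold change of 0.497, while 0 of them were called at 0 h. Jund rose from 2256 and 2260 in WT to 5505 and 5956 in cKO (1.34, standard error 0.08, limma adjusted p = 0.00124). Klf4, a zinc finger factor of monocyte differentiation, rose from 215 and 163 to 708 and 864 (2.06), Klf9 from 57.6 and 48.7 to 195 and 193 (1.87), and Egr1 from 86.2 and 70.9 to 162 and 233 (1.31). The small Maf proteins Mafg (1.21) and Mafk (1.17), partners of NRF2 and BACH1, were higher, and Egr2 (-1.41) and Batf3 (-1.19) were lower.

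Interferon-stimulated genes gave counts near the background, with 6 higher (11.8%) and 3 lower (5.88%) of 51 and a median log2 fold change of -0.00243. The exonuclease Isg20 was at 1061 and 1104 in cKO and at 386 and 376 in WT (1.51), the RIG-I ubiquitin ligase Trim25 rose by 0.84 and Irf7, the master factor of the interferon-α genes, by 0.70 on the log2 scale, the last not called with median-centring. Of 18 guanylate-binding proteins and immunity-related GTPases 1 was higher (5.56%) and 2 were lower (11.1%).

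Antigen presentation and costimulation genes were mixed, with 7 higher (18.9%) and 4 lower (10.8%) of 37, and 4 and 4 with median-centring. Cd274, which encodes the inhibitory ligand PD-L1, rose from 16465 and 19121 in WT to 38487 and 39732 in cKO (1.14, standard error 0.09, limma adjusted p = 0.00177). The lipid-presenting Cd1d1 (1.41) and Ciita (1.01), the master regulator of MHC class II, were higher. H2-Aa, an MHC class II chain, was nevertheless lower, at 59033 and 57885 in cKO against 94332 and 90716 in WT (-0.66, and adjusted p = 0.0787 from limma with median-centring). The costimulatory ligands Cd86 (5413 and 5067 against 8812 and 9424, -0.80) and Icosl (-1.20) were lower.

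The antimicrobial enzymes differed from each other. Nos2, the inducible nitric oxide synthase, rose from 20613 and 22765 in WT to 42397 and 40056 in cKO (0.93, standard error 0.08, limma adjusted p = 0.00202). Acod1, which makes itaconate, stood at 0.17 on the log2 scale (limma adjusted p = 0.139) and the prostaglandin synthase Ptgs2 at -0.28 (adjusted p = 0.148), and neither passed. Tbxas1, thromboxane synthase, fell from 3360 and 4293 to 1302 and 1075 (-1.68).

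The integrated stress response joins several kinases that sense amino acid shortage, haem, viral RNA or misfolded protein, and through Atf4 it induces genes of amino acid import and synthesis. Of the 42 genes of this response and of the unfolded protein response 13 were higher (31%) and 4 lower (9.52%) in cKO, against 4 and 4 at 0 h. Median-centring gave 10 higher and 4 lower. Chac1, which degrades glutathione, was at 53.5 and 43.5 in cKO and at 7.17 and 5.78 in WT (log2 fold change 2.89, standard error 0.34, limma adjusted p = 0.00483). Trib3, a pseudokinase that restrains the response, was at 71.1 and 84 against 10.3 and 11.9 (2.79), and Sesn2, which senses leucine and inhibits mTORC1, at 95.3 and 100 against 28.9 and 32.9 (1.66). The groups were far apart for all 3.

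Amino acid transport and synthesis genes were among the higher members. Slc7a11, the cystine importer, rose from 3955 and 3742 in WT to 11056 and 12228 in cKO (1.60, standard error 0.08, limma adjusted p = 0.00109), and its partner chain Slc3a2 from 7321 and 6397 to 12933 and 14344 (0.99). Slc7a5, the leucine importer, was at 146 and 161 against 51.3 and 71.7 (1.34) and asparagine synthetase, Asns, at 384 and 367 against 173 and 176 (1.11). Atf4 itself was at 2480 and 2465 against 1736 and 1551 (0.59), and with median-centring its adjusted p was 0.0946. The 4 aminoacyl-tRNA synthetase and translation factor genes called, of 60, were all higher (6.67%, under the background of 8.34%).

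Among genes of protein folding in the endoplasmic reticulum the calls went both ways. The chaperone Hsp90b1, or GRP94, was at 6461 and 6254 in cKO and at 11007 and 12126 in WT (-0.86), the disulfide isomerases Pdia4 (-0.63) and Pdia6 (-0.62) were lower, and so was Psat1 of serine synthesis (-1.11). Dnajb9 (1.19) and Edem1 (0.65, not called with median-centring), which serve the folding and removal of proteins there, were higher.

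Promoters of the higher stress genes were read from 250 bases before to 50 bases after the start (RefSeq, GRCm38.p6) for the letters TGATGCAA on either strand, the composite site of CHOP, ATF4 and C/EBP. They occurred in 2 of the 12 higher genes of the list with a promoter sequence, in 3 of all 37 members with one and in 0.787% of 11049 tested genes. The windows of 28 bases are shown because Chac1 and Slc7a11 are the higher genes with these letters, and the letters, or their complement read on the other strand, are in capitals. The Chac1 window lies on the plus strand at chr2:119351039-119351066, and those of Slc7a11 on the minus strand at chr3:50443662-50443689 and chr3:50443643-50443670. A match describes the sequence only.
Chac1: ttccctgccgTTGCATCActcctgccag
Slc7a11, distal: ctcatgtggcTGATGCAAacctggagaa
Slc7a11, proximal: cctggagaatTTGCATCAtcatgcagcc

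Antioxidant and iron genes rose without exception among those called. NRF2 with small Maf proteins induces glutathione synthesis, peroxiredoxins, haem oxygenase and ferritin, and iron enters through the transferrin receptor and leaves through ferroportin. Of 40 genes 12 were higher (30%) and 0 lower, and at 0 h 1 was higher. Quantile normalization gave the same 12 and 0 in number, and median-centring 7 and 1. Nfe2l2, the gene of NRF2, was not called, at 2497 and 2554 in cKO and 2796 and 2493 in WT. Srxn1, which repairs oxidised peroxiredoxins, was at 642 and 740 in cKO and at 131 and 126 in WT (log2 fold change 2.43, standard error 0.13, limma adjusted p = 0.00109). Gclm, the regulatory subunit for glutathione synthesis, was at 1308 and 1591 against 534 and 537 (1.43), and Hmox1, haem oxygenase 1, at 1586 and 1688 against 918 and 931 (0.82).

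Genes of iron import, storage and export were among the higher ones. Tfrc, the transferrin receptor, was at 882 and 821 in cKO and at 119 and 197 in WT (2.48, standard error 0.24, limma adjusted p = 0.00257). Its 0 h log2 fold change was 2.34, so that it was also higher at rest. Slc40a1, or ferroportin, the exporter, was at 103 and 106 against 33.5 and 37.1 (1.56). The ferritin chains were among the most covered genes of all, with Ftl1 at 200460 and 207760 in cKO and at 90480 and 94896 in WT (1.14) and Fth1 at 253580 and 293300 against 154320 and 121720 (0.99). Prdx1, an abundant peroxiredoxin, was at 88183 and 95837 against 46692 and 47854 (0.96). With median-centring these 3 abundant genes were not called, at limma adjusted p-values of 0.0655, 0.172 and 0.059.

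The letters TGACNNNGC, the core of the antioxidant response element to which NRF2 and small Maf proteins bind, were found on either strand in 3 of the 10 higher genes with a promoter sequence, in 7 of all 31 members with one and in 16.8% of 11049 tested genes, so they are common. The windows of these 3 genes are shown, all on the plus strand, at chr2:152105543-152105570 (Srxn1, after the start), chr3:122245414-122245441 (Gclm) and chr4:116685457-116685484 (Prdx1), with the complement of the letters in capitals.
Srxn1: cagtgggcaGCTAGGTCAgagtgagaca
Gclm: ctcccgggcGCACCGTCAactctcacga
Prdx1: agggaaagcGCTGAGTCAtcccccgtag

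**Figure D4:**
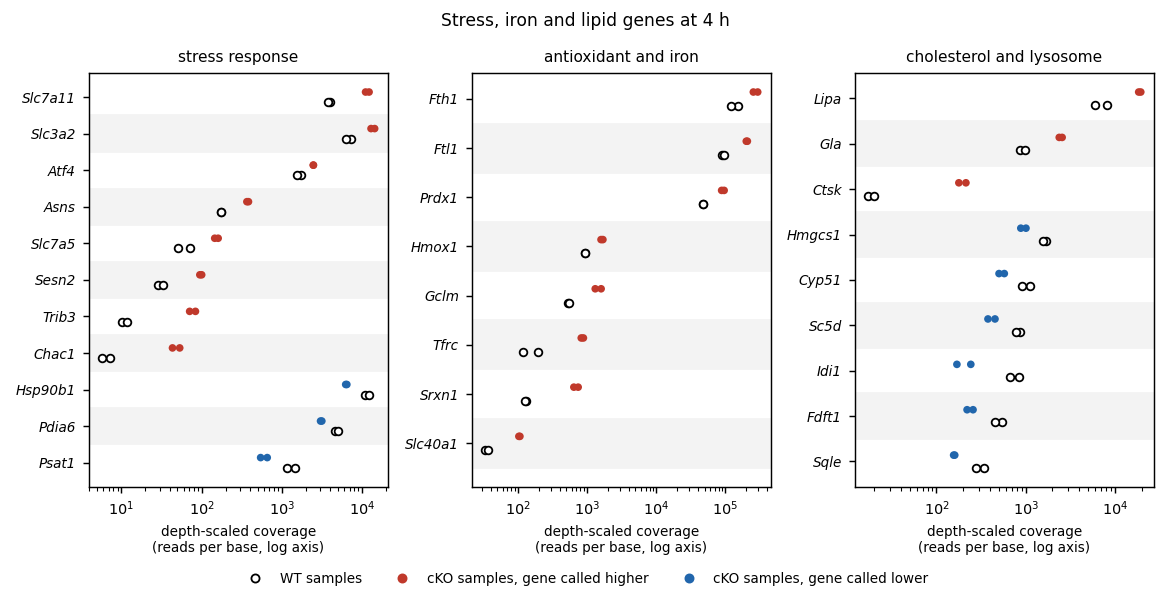
Depth-scaled coverage of stress, iron and lipid genes in each sample at 4 h (log axis), with open circles for the 2 WT and filled circles for the 2 cKO samples. In every row the cKO samples lie on 1 side of the WT samples. They are higher for all 8 antioxidant and iron genes shown and lower for the 6 sterol genes from Hmgcs1 to Sqle. Only called genes are shown, so the separation follows from their choice.

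In the list of cholesterol and fatty acid metabolism 12 of 61 genes were lower (19.7%) and 3 higher (4.92%), with 14 and 2 after median-centring and 8 and 6 with unscaled values. The lower genes included steps of the mevalonate and sterol pathway, which SREBP2 induces. Idi1, isopentenyl diphosphate isomerase, was at 243 and 170 in cKO and at 850 and 673 in WT (log2 fold change -1.90, standard error 0.21, limma adjusted p = 0.00371). Hmgcs1, HMG-CoA synthase, was at 1009 and 884 against 1715 and 1564 (-0.79), squalene synthase, Fdft1, at 221 and 257 against 546 and 448 (-1.05), and squalene epoxidase, Sqle, at 160 and 156 against 340 and 278 (-0.96). Cyp51 (-0.92) and Sc5d (-0.99) were lower too. Elovl5, a fatty acid elongase, had a log2 fold change of -1.24 and Pparg one of -1.11. In the comparison at 0 h, 9 genes of this list were already lower in cKO and 2 were higher.

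The 3 higher genes of this list handle stored or incoming lipid. Lipa, lysosomal acid lipase, was at 18550 and 19576 in cKO and at 5996 and 8241 in WT (1.44, standard error 0.15, limma adjusted p = 0.00323), Soat1, which esterifies cholesterol, was higher (0.76), and Lpl, lipoprotein lipase, was at 38114 and 34485 against 17055 and 26692 (0.76), not called with median-centring. The letters TCACNCCAC, a sterol regulatory element, were found on either strand in the promoter of 1 of the 8 lower genes with a sequence, Hmgcs1, of 2 of all 47 members with one and in 1.38% of tested genes. The window lies on the plus strand at chr13:119690205-119690232 and is shown with the letters in capitals.
Hmgcs1: gtcaccgtcTCACCCCACttcccaggtc

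Of 71 hydrolases, membrane proteins and V-ATPase subunits 10 were higher (14.1%) and 3 lower (4.23%), with a median log2 fold change of 0.35, and 9 higher and 5 lower with median-centring. Ctsk, cathepsin K, a collagen-degrading protease, was at 214 and 178 in cKO and at 17.2 and 19.8 in WT (3.40, standard error 0.22, limma adjusted p = 0.00137). Gla, α-galactosidase A, rose from 857 and 989 to 2383 and 2569 (1.43) and Acp5, tartrate-resistant acid phosphatase, from 556 and 603 to 1341 and 1166 (1.11). Lgmn, legumain, was lower (4858 and 4352 against 8572 and 10816, -1.07), as was β-glucuronidase, Gusb (-0.86). GTCACGTG, the core of the CLEAR element bound by TFEB, was searched on both strands and found in the promoter of 1 of the 7 higher genes with a sequence, Gla, in 13 of the 57 list members with one (22.8%), whether called or not, and in 4.55% of tested genes.

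Matrix proteases and their inhibitors changed in both directions, with 4 higher (12.9%) and 5 lower (16.1%) of 31. The collagenase Mmp13 was at 9158 and 7877 in cKO and at 39475 and 28677 in WT (-1.99, standard error 0.16, limma adjusted p = 0.00177). Timp2, a metalloproteinase inhibitor, rose from 489 and 669 to 2556 and 2837 (2.23), and the gelatinases Mmp9 (58.5 and 48.6 against 5.46 and 17.5, 2.43) and Mmp2 (1.57) were higher from low levels. For Mmp9 the log2 fold change was 1.60 without WT sample 1 and 3.26 without WT sample 2.

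Phosphoinositide signalling gave 6 higher (9.38%) and 4 lower (6.25%) of 64, with 5 and 6 after median-centring. Among its members were the regulatory subunit Pik3r1 (972 and 1023 in cKO against 413 and 422 in WT, 1.26) and the transcription factor Foxo3 (47.4 and 61.8 against 10.3 and 17.1, 2.02), which were higher. Pik3cg, the catalytic subunit of PI3Kγ that acts below chemokine receptors, was lower (304 and 255 against 665 and 701, -1.29), as was the lipid phosphatase Inppl1 (-1.29). In the list of small GTPase, actin and adhesion genes 5 of 79 were higher (6.33%) and 6 lower (7.59%), with 3 and 10 after median-centring, and Arhgap15, a Rac inhibitor, was at 551 and 484 against 1399 and 1659 (-1.56). Among apoptosis genes 3 of 41 were higher (7.32%) and 5 lower (12.2%), with 1 and 4 after median-centring and 10 and 1 unscaled. The death-promoting Bcl2l11, or BIM, rose from 1600 and 1336 to 3184 and 3841 (1.26), and the protective Bcl2l1, or BCL-XL, fell from 1024 and 1218 to 556 and 582 (-0.97).

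In the pathway of Nudt21 itself, the 26 cleavage and polyadenylation genes gave 3 higher (11.5%) and 0 lower, and with median-centring 2 and 1. Cpsf6, the larger partner of Nudt21 in cleavage factor Im, was at 1588 and 1607 in cKO and at 484 and 476 in WT (1.73, standard error 0.09, limma adjusted p = 0.00109). Scaf4, which prevents early polyadenylation, was higher (0.86). Of the 15 microRNA pathway genes 3 were higher (20%) and 1 lower (6.67%), against 5 and 1 with median-centring, and the Argonaute genes diverged, with Ago2 at 658 and 689 against 246 and 274 (1.37) and Ago3 at 311 and 254 against 695 and 739 (-1.35). In the SR and hnRNP list 5 of 44 were lower (11.4%), led by Hnrnpr (-1.52), and 3 higher (6.82%). With unscaled values this turned to 2 lower and 4 higher. Of 49 mRNA decay genes 5 were higher (10.2%) and 0 lower, with 3 and 1 after median-centring.

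Chromatin enzymes gave 8 higher (9.2%) and 1 lower (1.15%) of 87, with 5 and 3 after median-centring. The DNA methyltransferase Dnmt3a was at 570 and 530 in cKO and at 181 and 229 in WT (1.43) and the deacetylase Hdac9 had a log2 fold change of -1.57. Of 58 clustered histone genes 7 were higher (12.1%) and 0 lower, among them Hist1h2bf (135 and 150 against 42 and 46, 1.70). Histone genes are near-identical copies of each other, so reads may have been shared between them.

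The remaining lists are given by their counts, with those after median-centring where the balance turned. Higher and lower genes numbered 1 and 4 of 77 cytosolic ribosomal proteins (led by Rps27, -0.99), 2 and 2 of 77 mitochondrial ribosomal proteins (0 and 4 with median-centring), 3 and 0 of 70 oxidative phosphorylation genes (1 and 1) and 0 and 1 of 40 proteasome subunits. With unscaled values these lists gave, in the same order, 2 and 1, 15 and 0, 16 and 0, and 7 and 0. Genes of glycolysis and the TCA cycle gave 4 and 2 of 59 (0 and 4 with median-centring), where Aldoa was higher (0.63) but not with median-centring. DNA replication and mitosis gave 2 and 3 of 60 (2 and 7 with median-centring or quantile normalization, 6 and 2 unscaled, with a median log2 fold change of -0.264), ubiquitin enzymes 5 and 0 of 80, and nitric oxide, itaconate and prostanoid enzymes 2 and 3 of 25 (4 and 2 unscaled). The balance turned with median-centring for Rab and Arf genes (5 and 3 of 65, then 2 and 6), SNARE and ESCRT genes (6 and 4 of 66, then 2 and 5), JAK, STAT, IRF and SOCS genes (3 and 1 of 43, then 0 and 4), TGF-β, Wnt and Notch genes (6 and 3 of 46, then 3 and 4) and Zfp genes (17 and 5 of 334, then 10 and 12).

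Core autophagy is given for comparison. All 13 called genes of 40 (32.5%) were higher, as they were in number with median-centring and quantile normalization. The cargo receptor Sqstm1, or p62, which NRF2 also induces, was at 35005 and 37939 in cKO and at 15572 and 15183 in WT (1.24), Ulk2 at 291 and 290 against 92.8 and 131 (1.40) and Atg4c at 102 and 148 against 38.2 and 41.2 (1.63). Map1lc3b had a log2 fold change of 1.02.

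To see which of these changes were already present without stimulation, the genotypes were compared in the same way at 0 h. There 16256 genes were tested, with 3.62% called higher and 3.88% called lower. Of the 1246 genes higher at 4 h, 247 were also higher at 0 h (19.8% of the 4 h calls and 42% of the 588 at 0 h) and 17 were lower. Of the 612 lower genes 149 were also lower at 0 h (24.3% and 23.6%) and 5 were higher. A test of the genotype effect between the times, a limma interaction over all 8 samples, was passed at an adjusted p under 0.05 by 6.27% of 16272 genes, of which 720 had a higher log2 fold change at 4 h and 301 a lower one. With median-centring the balance turned, with 440 higher and 712 lower.

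The same interaction was counted in the lists, where no difference between lists was tested. Over all genes 4.42% had a higher log2 fold change at 4 h and 1.85% a lower one, and with median-centring 2.7% and 4.38%. Among antioxidant and iron genes 9 of 40 were higher and 0 lower at 4 h (4 and 2 with median-centring), and among stress response genes 9 and 1 of 42 (7 and 2). Core autophagy gave 8 and 0 of 40 (5 and 0) and the lysosomal list 10 and 2 of 71 (7 and 6). These lists were not alone. Antigen presentation and costimulation gave 8 and 1 of 37 (4 and 1) and interferon-stimulated genes 8 and 0 of 51 (4 and 0). Guanylate-binding proteins and immunity-related GTPases gave 4 and 0 of 18 (1 and 0). Genes of glycolysis and the TCA cycle gave 7 and 0 of 59 (1 and 2). Cholesterol and fatty acid metabolism gave 4 and 5 of 61 (3 and 5). For receptors the split was 1 and 4 of 30 in the chemoattractant list (0 and 5) and 5 and 6 of 44 in the phagocytic list (4 and 8), in which 15 genes were already lower at 0 h. Trib3, Sesn2, Srxn1, Gclm, Slc40a1, Klf4 and Jund had log2 fold changes between -0.60 and 0.03 at 0 h and between 1.34 and 2.79 at 4 h. Ccr1 and Olr1 were at -0.01 and -0.17 at 0 h and at -2.03 and -2.06 at 4 h. All genes named in this comparison were called at 4 h, and that choice favours a larger change there.

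**Figure D5:**
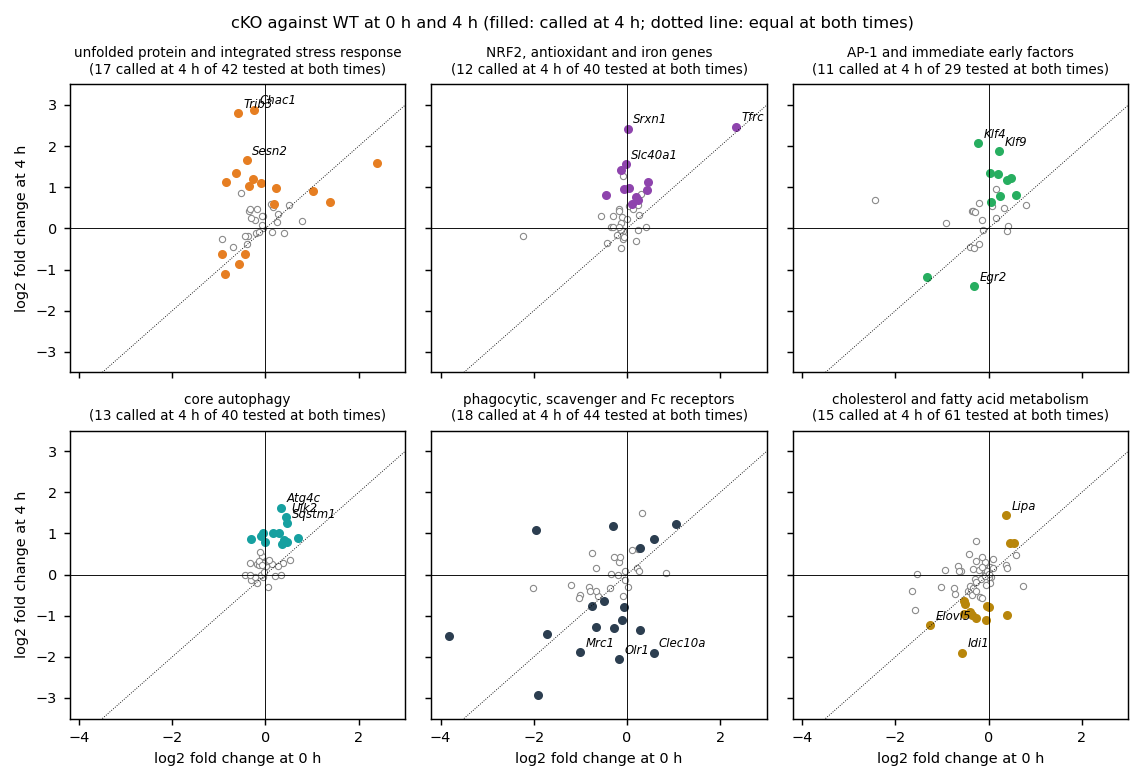
Log2 ratio of cKO to WT at 4 h (vertical) against that at 0 h (horizontal) for the members of 6 lists, filled where called at 4 h, with a dotted line where both are equal. The called stress, antioxidant, AP-1 and autophagy genes lie mostly above the dotted line and near 0 on the horizontal axis, and Tfrc and Slc7a11 lie far to the right. Filled genes were chosen by their 4 h call, which itself favours a place off the dotted line.

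Lastly, the annotated 3'UTR was compared between called genes and all genes, because Nudt21 acts there. The longest 3'UTR of a gene (GENCODE M21, GRCm38) had a median of 1650 bases in the 1158 higher genes with one, of 980 in 537 lower genes and of 1097 in all 12808 genes. UGUA occurred a median of 8, 6 and 6 times, and per kilobase 5.11, 5.61 and 5.11 times. The higher genes thus had longer annotated 3'UTRs and no greater density of UGUA. The share called also differed with coverage, since after a split of the genes into 5 equal groups by coverage 1.67% of the lowest group were called higher against 10% to 12.4% in the upper 3 groups, and the part of coverage in the 3'UTR difference was not tested.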

How the data were processed

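RNA-seq reads of 8 BMDM samples were aligned by the authors with HISAT2 2.2.1 to mm10 (GRCm38) and assembled with StringTie 2.1.7, per the submitters' processing notes. The deposited tables give 1 coverage value per gene symbol and sample (21080 symbols), which was read as StringTie's mean per-base coverage from its range. Further deposited columns hold the authors' own comparison (log2 fold change, p, FDR, significance and class) and were not used. Each of the 4 stimulated samples was scaled to their mean summed coverage, log2(value + 0.1) was taken, genes with a mean under 0.5 were left out, and limma 3.58.1 (R 4.3.3) was fitted with an intensity trend. The script was tested on simulated data of 2 against 2 samples whose spread was drawn from the trended fit, which does not test the trend itself. The interaction was fitted over all 8 samples. P-values were two-sided and Benjamini-Hochberg adjusted over all genes. With 2 samples per group an exact two-sided permutation p of a single gene cannot go below 0.333. Alternatives were other scalings, filters, a pseudocount of 1, fits without the trend, with all 8 samples or without 1 sample, and unadjusted p-values.

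The members and gene lists were chosen with earlier results of these data known. Named were Nudt21, Cpsf6, the largest changes among genes whose mean coverage reached 5 without overlap, leaving out predicted symbols, up to 4 called genes per direction of each list, and the best covered members of some lists. Adgre1, Spi1, Lyz2, Ccdc141, Fpr3, Gm27177, Il6, P2ry6, C3ar1, Msr1, Marco, Timd4, Fcgr4, Fcgr2b, Fcgr3, C1qb, Mafg, Mafk, Atf4, Slc3a2, Slc7a5, Asns, Dnajb9, Edem1, Nfe2l2, Hmox1, Ftl1, Fth1, Prdx1, Sqle, Hmgcs1, Cyp51, Sc5d and Acp5 were added after their values were seen. Fc receptors, H2-Aa and other genes with close copies may share reads. Some items are not reported here.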

Additional observations from a re-analysis of the deposited data

Results flagged for a closer look

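Among the 155 genes named, 63 had a genotype effect that was not the same at 0 h and 4 h, by a limma interaction test over all 8 samples (adjusted p 0.00349 to 0.0487). Over all 16272 genes 6.27% passed. Of the 155 named, 141 were called at 4 h, so the choice of genes itself favours a difference from 0 h. Values in brackets are the log2 ratio of cKO to WT at 4 h minus that at 0 h, positive for 42 genes and negative for 21. Of the 63 genes, 54 also passed with median-centring and 53 with the replicate block. Those that did not pass with median-centring were Atg4c, Sqstm1, Dusp3, Slc3a2, Fth1, Prdx1, C3, Bcl2l11 and Aldoa, and those that did not pass with the replicate block were Ulk2, Ifna5, Cxcl9, Map3k5, Slc7a5, Idi1, Hmgcs1, Lgmn, Mmp2 and Spi1. Stress response and amino acid genes with a higher log2 fold change at 4 h than at 0 h were Trib3 (3.39), Sesn2 (2.06), Slc7a5 (1.96), Dnajb9 (1.47), Asns (1.20) and Slc3a2 (0.76). Antioxidant and iron genes gave Srxn1 (2.41), Slc40a1 (1.60), Gclm (1.56), Hmox1 (1.28), Prdx1 (1.02) and Fth1 (0.96). Transcription factors and signalling genes with a higher value at 4 h were Zfp503 (3.15), Klf4 (2.29), Foxo3 (2.22), Klf9 (1.65), Jund (1.31), Pik3r1 (1.26), Bcl2l11 (0.85) and Dusp3 (0.83). Autophagy genes gave Atg4c (1.30), Map1lc3b (1.07), Ulk2 (0.96) and Sqstm1 (0.79). Secreted, complement and interferon-related genes gave Cxcl9 (4.71), Ifna5 (4.68), Cfb (3.03), Gdf15 (2.94), Cd1d1 (2.17), Cxcl10 (1.75), Isg20 (1.52), C3 (1.49) and Irf7 (1.05). The values of Cxcl9 and Cxcl10 come with lower coverage in cKO at 0 h (log2 fold changes -4.78 and -1.98), while at 4 h neither gene was called. Ifna5 had too little coverage at 0 h to be tested there.

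Lysosomal, matrix and metabolic genes gave Mmp2 (2.39), Ctsk (1.79), Timp2 (1.71), Acp5 (1.10), Lipa (1.06) and Aldoa (0.66). Tlcd2, a histone gene and an RNA-processing gene also had higher values, namely Tlcd2 (1.46), Hist1h2bf (1.56) and Scaf4 (0.82). Receptors had a lower log2 fold change at 4 h, namely Clec10a (-2.47), Ccr1 (-2.03), Olr1 (-1.88), Tlr4 (-1.13), Fcgr4 (-1.01), Fcgr2b (-1.01), C3ar1 (-0.94) and Fcgr3 (-0.72). Sterol genes with a lower value were Sc5d (-1.40), Idi1 (-1.34) and Hmgcs1 (-0.81). Other genes with a lower value were Gm27177 (-6.32), Il1a (-1.91), Ago3 (-1.58), Arhgap15 (-1.27), Inppl1 (-1), Bcl2l1 (-0.92), Lgmn (-0.82), Edem1 (-0.73), Map3k5 (-0.63) and Spi1 (-0.48). The value of Gm27177 depends on the pseudocount, since its coverage in cKO was near 0. Ccr1, Olr1 and Fcgr3 had log2 fold changes of -0.01, -0.17 and -0.06 at 0 h. Edem1 was higher in cKO at both times, by 1.37 at 0 h and 0.65 at 4 h on the log2 scale. Il1a was at 1.31 at 0 h and at -0.60 at 4 h.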

How the results depend on the processing

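Against 1246 higher and 612 lower genes, unscaled values gave 2505 and 386, no filter on coverage 266 and 57, no intensity trend 153 and 43, and an unadjusted p under 0.05 gave 1928 and 1011. Median-centring gave 1008 lower genes and quantile normalization 975. Leaving out any 1 sample (WT 1, WT 2, cKO 3 or cKO 4) gave 0 higher and 0 lower genes, with fewer samples in the fit and the lone sample assumed to vary like the other group. Nudt21 stayed at -2.34 with an adjusted p of 0.0591 without the filter and 0.0585 without the trend, and ranged from -2.52 to -2.16 with 1 sample left out (limma adjusted p 0.0575 to 0.311). Of the 141 called genes named here, 0 changed sign under any alternative. For fits without 1 sample this follows from the lack of overlap between groups. Calls were lost for 15 genes with median-centring, 13 unscaled, 4 with quantile normalization, 117 without the filter and 125 without the trend. The cause of these losses was not tested.

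Among genes that were not called, the sign turned for Tnf (-0.0235) and Il6 (-0.0561) with median-centring, for Ccl5 (0.0442), Cxcl9 (0.1365) and Nfe2l2 (0.1472) unscaled and for Cxcl9 (0.0030) with quantile normalization. With 1 sample left out the ranges were -0.0791 to 0.2814 for Tnf, -0.1097 to 0.2467 for Il6, -0.3624 to 0.0279 for Ccl5, -0.1929 to 0.0430 for Cxcl9 and -0.1470 to 0.0184 for Nfe2l2.

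No paired analysis was possible because the WT samples at 4 h are numbered 1 and 2 and the cKO samples 3 and 4, so the genotypes share no number. For the interaction the same numbers recur at 0 h and 4 h. Deviations from the group means correlated across genes with r = 0.0193 in WT and 0.0237 in cKO. With 2 pools per group this does not settle whether equal numbers mark the same pool, so both fits are given. With the replicate block 723 genes passed instead of 1021, and without the intensity trend 408. Coverage does not give the number of mapped reads behind a value, so no counting error is given for low coverage.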
